A study of Sus scrofa with 24 samples.

Results

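Genes of the skeletal muscle sarcomere and of muscle contraction were followed in pooled pig embryos of gestation day 30. The list held 42 gene symbols, chosen for what their products do but with earlier results of these data known. Each symbol was looked up in the gene symbols of the array's platform. At least 1 probe was found for 31 of the 42 genes, with 59 probes in all, out of 11903 genes and 43749 probes on the array. By role, 9 of the 31 measured genes belong to fast fibres, 7 to slow fibres, 12 are shared by both fibre types and 3 encode acetylcholine receptor subunits of the nerve end plate. The other 11 genes had no probe under their symbol and were not analysed here. They were ACTN3, MYH2, TNNI2 and TNNT3 of fast fibres, TNNI1 and TNNT1 of slow fibres, the developmental myosins MYH3 and MYH8, and the shared genes TTN, DES and CKM.

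The embryos came from sows after their first litter, kept either under a control treatment called C28 or under one of 2 schemes of intermittent suckling and mating during lactation, IS21FE and IS21SE, whose letters the labels do not spell out. Each array set a treated pool against a control pool of the same sex in 2 colours, which gave 4 groups: male IS21FE, female IS21FE, male IS21SE and female IS21SE, each against control. A group had 3 replicates of 2 arrays with exchanged dyes, so there were 24 arrays and 12 replicates. Every pool held 3 embryos of 1 sex from 1 sow, and male and female pools of a scheme came from the same 3 sows, while 6 sows gave the controls. No strain, sow age or tissue other than embryo is named.

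A sarcomere is the contractile unit of striated muscle. Thin filaments of actin, tropomyosin and troponin are anchored at the Z-disc and slide along thick filaments of myosin, which are tied together at the M-band. Calcium from the sarcoplasmic reticulum starts the cycle by binding troponin C. Fast and slow fibres use different isoforms of myosin, troponin and of the calcium pump, and embryonic muscle often carries both kinds before fibres specialise. Several of these genes, among them ACTC1, ACTN2, TNNC1, MYL2, TPM1, CASQ2 and ATP2A2, are also active in heart muscle.

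All values are log2 ratios of the treated to the control pool, where 1 unit is a doubling. Whether the deposited columns hold Cy5 over Cy3 is not stated. Where control RNA carried Cy5, the array was multiplied by -1, so if the columns hold Cy5 over Cy3 a positive ratio stands for more RNA in treated embryos, and under the opposite order for less. Ratios are therefore called positive or negative. As deposited, the 2 arrays of a replicate correlated below 0, as exchanged dyes should, in 6 of 6 male pairs but in 1 of 6 female pairs (Spearman's rho from -0.30 to 0.32 across 18481 probes), so dye order is less certain for female pools. Among arrays of 1 orientation, 3 of female pools were the most alike across probes (rho from 0.56 to 0.61): the Cy5-treated arrays of IS21FE replicates 1 and 3 and of IS21SE replicate 2. A ratio gives no level of either pool, so whether the pools held skeletal muscle transcripts at a given level was not measured, and fewer muscle cells and less RNA per cell cannot be told apart. Arrays held a value for 31722 to 39435 probes, and precision is limited by how few arrays there are.

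Measurement quality differed among the muscle genes. Of them, 19 had a value on all 24 arrays, and their SD between replicates of a group ran from 0.097 to 0.82 with a median of 0.19. The other 12 had blanks, with SDs from 0.26 to 1.79 and a median of 0.64. Over all genes the median SD was 0.26 with a value on every array and 0.83 with blanks. By this SD, the light chains MYL1 and MYLPF (0.11 each), the tropomyosin TPM3 (0.097) and the actins ACTA1 (0.18) and ACTC1 (0.19) were measured closely. The fast myosin MYH4 (10 of 24 arrays), the receptor subunit CHRND (13), the calcium store protein CASQ1 (17) and ASB15 (17) were not. The SD was taken after the dye orientations of a replicate were averaged, so it does not show how far they differed.

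Across the whole set, more genes were negative than positive in both IS21FE groups and, with a median close to 0, in female IS21SE pools. In male IS21FE pools 24 of 31 genes were negative with a median of -0.20, where 53.1% of all genes were negative with a median of -0.015. Female IS21FE pools had 23 of 31 genes negative with a median of -0.093, where all genes had 49.6% and 0.0019. Male IS21SE pools had 14 of 30 genes negative and a median of 0.057, against 51.2% and -0.009 of all genes. In female IS21SE pools 19 of 31 genes were negative and the median was -0.012, against 47.6% and 0.014. The female IS21FE count differed by dye orientation. It was 25 of 30 with treated RNA in Cy5 (51.2% of all genes) and 16 of 28 with control RNA in Cy5 (49%). In male IS21FE pools the counts were 22 of 31 (59%) and 19 of 28 (46%). These counts and medians describe the set and were not tested.

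No single muscle gene passed an adjusted p of 0.05 in any of the 9 limma contrasts (4 groups, 2 scheme means, 2 differences between sexes and 1 difference between schemes). Over all genes, 3 of 11419 passed in male IS21FE pools (0.0263%) and 0 in the other 8 contrasts (0%). At an unadjusted p under 0.05 there were 5 muscle genes in male IS21FE pools (7.58% of all genes), 2 in female IS21FE pools (7.14%), 4 in male IS21SE pools (11.1%) and 0 in female IS21SE pools (4.06%). Of the mean of both sexes, 4 of 31 muscle genes were under that p for IS21FE (8.08% of all genes) and 1 of 30 for IS21SE (7.69%). By direction, the male IS21FE genes were 4 negative and 1 positive (4.2% and 3.37% of all genes), and the female IS21FE genes 2 negative and 0 positive (3.7% and 3.43%). In male IS21SE pools there were 3 negative and 1 positive (5.39% and 5.74%), and female IS21SE pools 0 of either (1.72% and 2.34%). The IS21FE mean had 3 negative and 1 positive (4.39% and 3.69%), and the IS21SE mean 1 negative and 0 positive (3.44% and 4.25%). The negative share exceeded that of all genes in male and female IS21FE pools, in male IS21SE pools and in the IS21FE mean, on counts of 2 to 4 genes. The 4 negative male IS21FE genes lay at the cutoff, with unadjusted limma p from 0.0474 (ACTN2) to 0.049995 (MYOM2). Over the alternative settings muscle genes under that p in this group numbered 1 to 5. There were 2 with robust eBayes (7.34% of all genes) and 1 with array weights (5.32%).

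The replicates of male IS21FE pools were unlike each other. In replicate 1, 25 of 30 measured muscle genes were negative with a median of -0.30, in replicate 2 21 of 31 with -0.078, and in replicate 3 15 of 30 with 0.012. Female IS21FE pools had 26 of 31, 17 of 30 and 21 of 30 negative, with medians of -0.18, -0.056 and -0.084, so all 3 replicates lay below 0. Male IS21SE pools were split, with medians of -0.19, 0.11 and -0.037, and female IS21SE pools had -0.092, -0.0014 and -0.017. Leaving out replicate 1 of male IS21FE brought the group's median to -0.075, and leaving out replicate 1 of female IS21FE brought that group's median to -0.049.

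Fast fibre genes were the role with the most even sign in the IS21FE mean of both sexes. There 9 of 9 were negative (50.5% of all genes), with a median of -0.14 (range -1.28 to -0.081). The even sign came from averaging the sexes for MYBPC2, MYH1, CASQ1, ATP2A1 and MYOZ1, whose male and female IS21FE means had opposite signs. In male IS21FE pools 6 of 9 fast genes were negative (median -0.15, and -0.0077 without replicate 1) and in female IS21FE pools 7 of 9 (median -0.18, and -0.32 without replicate 2). The IS21SE mean was split, with 4 of 8 negative and a median of 0.0012. Of these fast genes, 2 had an unadjusted p under 0.05 in the IS21FE mean, MYLPF and CASQ1, and 0 in the IS21SE mean.

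MYLPF encodes the regulatory light chain of fast myosin. Its ratios were -0.27, -0.078 and -0.091 in male IS21FE pools and -0.25, -0.18 and -0.30 in female IS21FE pools. All 6 lay below 0, and the male values overlapped the female ones. In male IS21SE pools it had -0.087, 0.11 and -0.17, and in female IS21SE pools -0.14, 0.039 and -0.18, with replicate 2 positive in both. The IS21FE mean was -0.20 ± 0.067 (limma SE, n = 6; 95% interval -0.34 to -0.046; unadjusted p = 0.0155, limma adjusted p = 0.519), and the IS21SE mean was -0.070 ± 0.067 (limma adjusted p = 0.815). The female IS21FE group alone gave -0.24 ± 0.058 (SD, n = 3; limma adjusted p = 0.642). Its 3 probes were negative in each of the 4 groups, from -0.31 to -0.020. Dye orientation divided this gene: with treated RNA in Cy5, 6 of 6 arrays were negative in each sex, but with control RNA in Cy5 only 2 of 6 male and 4 of 6 female arrays were negative after the turn. The IS21FE mean was -0.32 from the first orientation alone and -0.073 from the second alone.

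MYL1, the essential light chain of fast myosin, kept its sign in male pools. It had -0.23, -0.13 and -0.29 in male IS21FE pools and -0.13, 0.0012 and -0.10 in the female ones. In male IS21SE pools it had -0.26, -0.17 and -0.16, and in female IS21SE pools -0.077, 0.17 and -0.21. The 6 male replicates were negative, as were 12 of 12 male arrays after the turn, while female replicates lay on both sides of 0. The male IS21FE mean was -0.21 ± 0.080 (SD, n = 3; unadjusted p = 0.0494, limma adjusted p = 0.658) and the male IS21SE mean was -0.20 ± 0.058 (SD, n = 3; limma adjusted p = 0.481). All 5 probes agreed in sign in male pools, from -0.28 to -0.14 under IS21FE and from -0.32 to -0.099 under IS21SE. The means of both sexes were -0.14 ± 0.067 for IS21FE and -0.12 ± 0.067 for IS21SE (limma SE, n = 6 each; limma adjusted p = 0.635 and 0.699).

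CASQ1, calsequestrin of fast fibres, stores calcium in the sarcoplasmic reticulum. It gave 0.69, 0.93 and -0.80 in male IS21FE pools and -1.13, -4.07 and -1.13 in female IS21FE pools. Each female IS21FE value came from 1 array, since the partner array was blank, and 2 of the 3 arrays are among those that were most alike. Male IS21SE pools had 0.65, 0.19 and 0.69, and female IS21SE pools -0.098, -0.61 and -0.13, so the IS21SE sexes did not overlap. In female IS21SE replicates 1 and 3, however, the 2 arrays had opposite signs. The female IS21FE mean was -2.11 ± 1.70 (SD, n = 3; unadjusted p = 0.00267, limma adjusted p = 0.470), and it was -1.13 without replicate 2. The mean of both sexes was -0.92 ± 0.37 for IS21FE (limma SE, n = 6; limma adjusted p = 0.577) and 0.12 ± 0.37 for IS21SE (limma adjusted p = 0.955). With female arrays left unturned the female IS21FE value was 0.60, so its sign rests on the dye order of female columns.

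The remaining fast genes varied more. MYH1 and MYH4 are adult fast myosin heavy chains that lie side by side in the pig genome (assembly Sscrofa11.1), followed by MYH2, which had no probe. MYH1 had -0.42, -0.71 and -1.20 in male IS21FE pools, all negative, against -0.20, 1.56 and 0.41 in the female ones. Its 2 probes disagreed in sign in the other 3 groups, so only male IS21FE has the same sign from both. MYH4 was measured in 8 of 12 replicates, 6 of them on 1 array, and ran from -3.68 to 1.01. MYBPC2, fast myosin-binding protein C, ran from -0.84 to 0.90 with both signs in every group. ATP2A1, the fast calcium pump, had -0.46, -0.40 and -0.35 in female IS21FE pools, but -0.58, 0.89 and 0.25 in male IS21FE pools. The close female values are means of unlike orientations, 0.032 from arrays of treated RNA in Cy5 and -0.61 from those of control RNA in Cy5. TNNC2, the calcium sensor troponin C of fast fibres, ran from -0.53 to 0.25, and MYOZ1, a Z-disc protein of fast fibres, from -0.99 to 0.81.

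Slow fibre genes had medians close to 0 in every group. They were -0.047 in male IS21FE pools (5 of 7 negative), -0.044 in female IS21FE pools (5 of 7), 0.069 in male IS21SE pools (2 of 7) and -0.012 in female IS21SE pools (5 of 7). Without replicate 1 the medians were 0.015 in male IS21FE, 0.032 in female IS21FE, -0.017 in male IS21SE and 0.058 in female IS21SE pools, each of the opposite sign. Of the 7 slow genes 0 had an unadjusted p under 0.05 in any of the 4 groups or in either scheme mean.

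MYBPC1, slow myosin-binding protein C, was the slow gene with the smallest p in both scheme means. It had -0.021, -0.32 and -0.14 in male IS21FE pools and -0.11, -0.42 and -0.19 in female IS21FE pools, negative in 6 of 6. Male IS21SE pools gave -0.66, -0.21 and 0.084, and female IS21SE pools -0.22, -0.074 and 0.25, with replicate 3 positive in both. The IS21FE mean was -0.20 ± 0.11 and the IS21SE mean -0.14 ± 0.11 (limma SE, n = 6 each; limma adjusted p = 0.675 and 0.777). Its 5 probes did not agree under IS21FE, where they ran from -0.68 to 0.11 in male and from -0.54 to 0.20 in female pools.

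ATP2A2, the calcium pump of slow and heart muscle that other tissues use as well, was the single gene that was positive in 6 of 6 IS21FE replicates. Its ratios were 0.22, 0.12 and 0.13 in male IS21FE pools and 0.098, 0.019 and 0.20 in female IS21FE pools. Its 2 probes disagreed in sign in male IS21FE pools (-0.060 and 0.38) and in male IS21SE pools (-0.082 and 0.23), and in female IS21FE pools the orientations did (-0.029 with treated RNA in Cy5, 0.24 with control RNA in Cy5). The IS21SE pools had 0.28, 0.16 and -0.22 in males and 0.11, 0.28 and -0.067 in females, with replicate 3 negative in both. The means were 0.13 ± 0.081 for IS21FE and 0.091 ± 0.081 for IS21SE (limma SE, n = 6 each; limma adjusted p = 0.705 and 0.802).

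TPM3, slow tropomyosin, had the smallest SD between replicates among the measured muscle genes, at 0.097. Its dye orientations had opposite signs in each group, so this SD is one between averages that partly cancel. With treated and with control RNA in Cy5 it had 0.11 and -0.13 in male and -0.13 and 0.23 in female IS21FE pools. Under IS21SE it had 0.14 and -0.052 in male and -0.047 and 0.29 in female pools. It ran from -0.074 to 0.22 over the 12 replicates, with means of 0.021 ± 0.064 for IS21FE and 0.082 ± 0.064 for IS21SE (limma SE, n = 6 each; limma adjusted p = 0.95 and 0.777). The 95% interval was -0.12 to 0.16 for IS21FE and -0.061 to 0.22 for IS21SE.

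TNNC1, troponin C of slow and heart muscle, was negative in 6 of 6 IS21FE replicates, with -0.44, -0.12 and -0.13 in male and -0.15, -0.11 and -0.19 in female pools. The female values average arrays of opposite sign in each replicate. Their means were 0.16 with treated RNA in Cy5 and -0.46 with control RNA in Cy5. Under IS21SE TNNC1 took both signs, from -0.70 to 0.45. MYL2, the regulatory light chain of slow and ventricular myosin, ran from -0.50 to 0.54, and the platform holds 2 further probes under its older name MLC2V, which ran from -0.58 to 0.49. These probes were kept apart. The lowest and the highest replicate were the same under both names, replicate 1 of female IS21SE and replicate 2 of male IS21SE. CASQ2, calsequestrin of slow and heart muscle, was measured in 11 replicates and ran from -0.83 to 2.22. MYOZ2, a Z-disc protein of slow fibres and heart, stayed between -0.37 and 0.091.

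**Figure D1:**
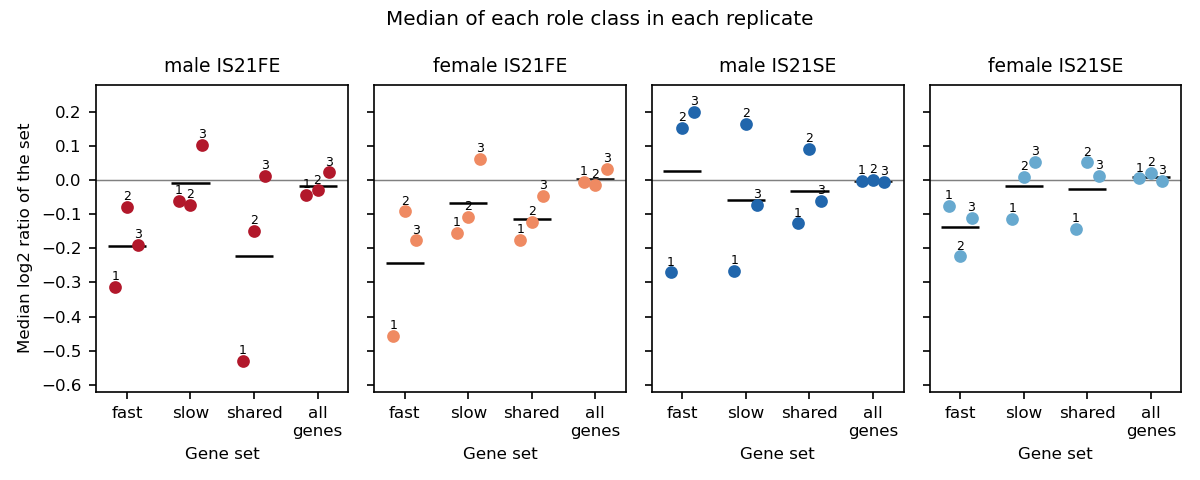
Median log2 ratio (vertical axis) of the fast, slow and shared genes and of all genes in each replicate (numbered points) of the 4 groups, with the mean of the 3 replicates as a black line. The shared genes of male IS21FE replicate 1 stand lowest at -0.53, and all genes stay within 0.043 of 0.

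Shared genes, a class that includes ASB15, were negative in 11 of 12 cases in male IS21FE pools, with a median of -0.27. ASB15 was the 1 positive gene there. In female IS21FE pools 10 of 12 were negative, with a median of -0.081. Male IS21SE pools had 6 of 12 negative (median -0.070) and female IS21SE pools 5 of 12 (median 0.0046). In male IS21FE the 3 replicate medians were -0.53, -0.15 and 0.012, so replicate 1 lay far below replicate 3, and without it the group's median was -0.15. The male IS21SE median changed sign without replicate 1 (0.032) or replicate 3 (0.0013), and the female IS21SE median without replicate 2 (-0.024).

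ACTN2, alpha-actinin of the Z-disc, crosslinks actin filaments. It had -0.58, -0.13 and -0.17 in male IS21FE pools and -0.11, -0.35 and -0.046 in female IS21FE pools, negative in 6 of 6. Male IS21SE pools had 0.23, 0.56 and 0.094, all positive, and female IS21SE pools -0.19, -0.047 and 0.046. The 2 male groups did not overlap. The male IS21FE mean was -0.29 ± 0.25 (SD, n = 3; unadjusted p = 0.0474, limma adjusted p = 0.649) and the male IS21SE mean was 0.29 ± 0.24 (SD, n = 3; unadjusted p = 0.0464, limma adjusted p = 0.446). The mean of both sexes was -0.23 ± 0.091 for IS21FE (limma adjusted p = 0.577) and 0.12 ± 0.091 for IS21SE (limma SE, n = 6 each; limma adjusted p = 0.777). As the plot of single arrays shows, 6 of 6 male IS21FE arrays were negative and 6 of 6 male IS21SE arrays positive after the turn.

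ACTC1 and ACTA1 are the actins of heart and of skeletal muscle. ACTC1 had -0.56, -0.36 and 0.068 in male IS21FE pools and -0.21, -0.019 and -0.047 in female IS21FE pools. Male IS21SE pools gave 0.21, 0.33 and -0.0096, and female IS21SE pools 0.050, -0.0090 and 0.15. So 5 of 6 IS21FE replicates were negative, and the positive replicate (0.068) lay within the IS21SE values. The male IS21FE mean of ACTC1 was -0.28 ± 0.32 (SD, n = 3; unadjusted p = 0.0497, limma adjusted p = 0.659). Its means of both sexes were -0.19 ± 0.089 for IS21FE and 0.12 ± 0.089 for IS21SE (limma SE, n = 6 each; limma adjusted p = 0.643 and 0.764). ACTA1 had -0.53, -0.19 and 0.12 in male and -0.18, -0.15 and -0.14 in female IS21FE pools, and under IS21SE it ran from -0.083 to 0.24.

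MYOM2, an M-band protein, shared with MYL1 a negative sign in all 6 male replicates. It had -0.61, -0.16 and -0.45 in male IS21FE pools and -0.67, -0.40 and -0.18 in male IS21SE pools. Female IS21FE pools had 0.066, -0.17 and -0.041, and female IS21SE pools -0.37, 0.53 and -0.39. The male means were -0.41 ± 0.23 for IS21FE (unadjusted p = 0.049995, limma adjusted p = 0.660) and -0.42 ± 0.24 for IS21SE (SD, n = 3 each; unadjusted p = 0.0458, limma adjusted p = 0.446). Of all genes measured in the 6 male replicates, 2.65% were negative in each, against 2 of 29 muscle genes. MYOM1, the related M-band protein, had -0.29, -0.054 and -0.012 in male IS21FE pools and 0.13, 0.092 and 0.061 in male IS21SE pools, without overlap. By orientation it had 0.10 and 0.19 in these groups with treated RNA in Cy5, and -0.34 and -0.0046 with control RNA in Cy5.

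NEB encodes nebulin, the ruler of the thin filament. It had -0.32, 0.28 and -0.75 in male IS21FE pools and -0.18, 0.054 and -0.049 in female IS21FE pools. Male IS21SE pools had -0.43, -0.78 and -0.68, all negative, and female IS21SE pools 0.043, 0.64 and -0.11, all above the male values. The male IS21SE mean was -0.63 ± 0.18 (SD, n = 3; unadjusted p = 0.00952, limma adjusted p = 0.329), and its 3 probes ran from -0.78 to -0.50. In female pools the 2 dye orientations opposed each other. As deposited, NEB averaged -0.77 on female arrays of treated RNA in Cy5 (5 of 6 negative) and -0.91 on those of control RNA in Cy5 (6 of 6 negative), and after the turn these partly cancel. Where no array was turned, NEB in female IS21FE was the 1 muscle gene past the threshold in any setting.

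**Figure D2:**
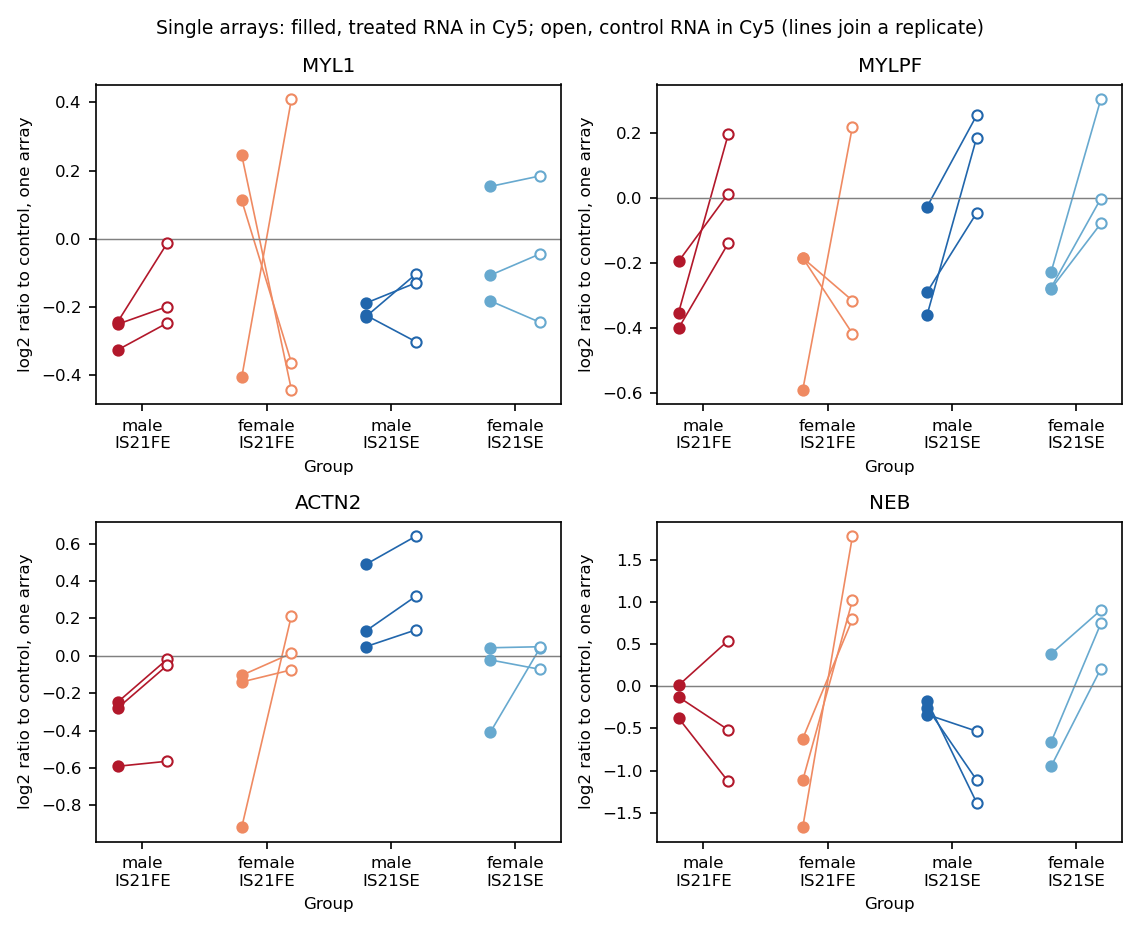
Log2 ratio to control on single arrays (vertical axis) for MYL1, MYLPF, ACTN2 and NEB in the 4 groups, after the turn, with filled points for treated RNA in Cy5, open points for control RNA in Cy5 and a line for each replicate. Male MYL1 and ACTN2 keep their side of 0 in both orientations, MYLPF averages lower with the treated RNA in Cy5 in each group, though not in female IS21FE replicates 1 and 3, and female NEB changes sides between orientations in every replicate but IS21SE replicate 2.

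ASB15, an ankyrin repeat protein of muscle, had wide differences between groups and many blanks. Male IS21FE pools had 1.61 and 1.70 in replicates 2 and 3, and male IS21SE pools -1.38 and -2.01 in replicates 1 and 3, with the remaining replicate blank. Female IS21FE pools had -0.70, -0.45 and -0.60, and female IS21SE pools -0.14, -0.67 and 0.90. The male IS21FE mean was 1.66 ± 0.064 (SD, n = 2; unadjusted p = 0.00119, limma adjusted p = 0.231) and the male IS21SE mean was -1.70 ± 0.45 (SD, n = 2; unadjusted p = 0.00104, limma adjusted p = 0.243). The mean of both sexes joins opposite signs under IS21FE and was 0.54 ± 0.21, and it was -0.83 ± 0.21 for IS21SE (limma SE, n = 5 each; limma adjusted p = 0.593 and 0.580). In male IS21FE pools ASB15 was 2.89 from arrays of treated RNA in Cy5 and 0.43 from those of control RNA in Cy5. The 2 arrays of replicate 2 there gave 3.86 and -0.64, so the small SD is one between averages of unlike arrays. In male IS21SE pools the arrays of replicate 1 gave -3.52 and 0.76, and replicate 3 had 1 array.

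Among the other shared genes, TPM1, a tropomyosin of skeletal and heart muscle, had 6 probes that were all negative in male IS21FE pools, from -0.34 to -0.092. Its replicates there were -0.40, -0.27 and 0.036, so the mean rests on replicates 1 and 2. TPM2, beta-tropomyosin, was negative in the 3 male IS21FE replicates (-0.20, -0.42 and -0.14). RYR1, the calcium release channel, was negative in 6 of 6 IS21FE replicates but ranged from -1.85 to -0.0036, and under IS21SE it reached 1.36. TCAP, which caps titin at the Z-disc, had a mean of -0.29 ± 0.19 for each scheme (limma SE, n = 6), with 5 of 6 replicates negative in both. Its lowest value was -1.18, in male IS21FE replicate 1. LDB3, a Z-disc adaptor, ran from -1.86 to 1.33.

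The end plate genes encode subunits of the muscle acetylcholine receptor. CHRNG, the embryonic gamma subunit, had replicate averages near 0. They were -0.15, -0.14 and 0.089 in male IS21FE pools and 0.16, 0.012 and 0.11 in female IS21FE pools. In male IS21SE pools they were 0.034, 0.10 and -0.20, and in female IS21SE pools -0.087, 0.13 and -0.055. The dye orientations of CHRNG had opposite signs in each group. With treated RNA in Cy5 its means were, in the same order, 0.047, 0.29, 0.0021 and 0.16, and with control RNA in Cy5 -0.18, -0.10, -0.044 and -0.16. Its means were 0.013 ± 0.070 for IS21FE and -0.012 ± 0.070 for IS21SE (limma SE, n = 6 each; limma adjusted p = 0.977 and 0.975). CHRNA1, the alpha subunit that binds the transmitter, took both signs in every group, from -1.03 to 0.72, with means of -0.15 ± 0.22 for IS21FE and -0.032 ± 0.22 for IS21SE. CHRND, the delta subunit, was read on 1 array in 9 of its 11 replicates and ran from -3.89 to 1.67. Male IS21SE pools were its even group, with 0.69, 0.85 and 0.77, but the arrays behind these values were not even. The 2 arrays gave 2.11 and -0.74 in replicate 1 and 0.13 and 1.57 in replicate 2, and replicate 3 had 1 array.

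**Figure D3:**
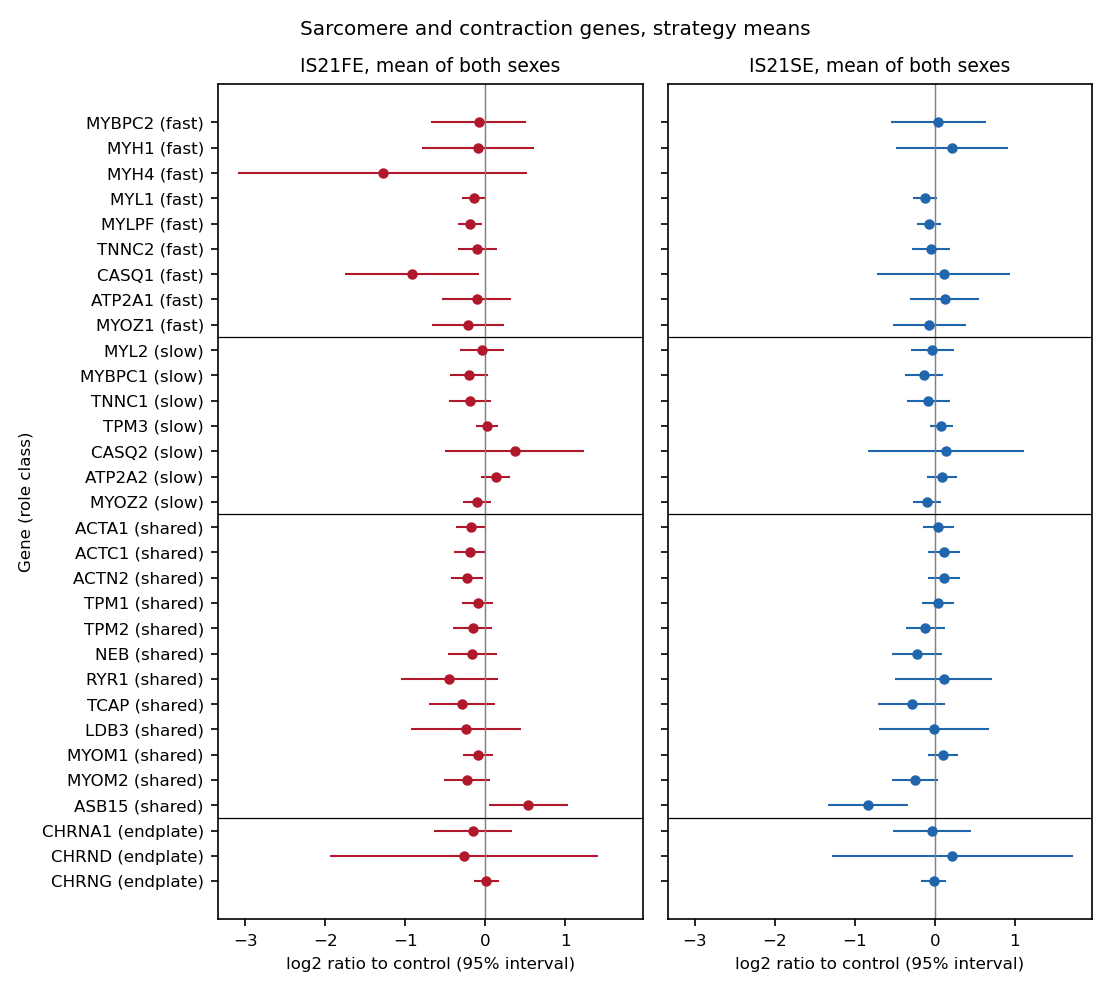
Mean log2 ratio to control over both sexes (horizontal axis) with the 95% limma interval for each gene (vertical axis, by role), under IS21FE on the left and IS21SE on the right. Under IS21FE 26 of 31 points lie left of 0, under IS21SE 16 of 30, and most intervals cross 0.

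Within groups, the counts of muscle genes with 1 sign in every replicate were read against those of all genes. In male IS21FE pools 10 of 29 were negative throughout (13.1% of all genes) and 2 positive, ATP2A2 and CASQ2 (9.81%). Female IS21FE pools had 11 of 29 negative (18%) and 2 positive, ATP2A2 and CHRNG (18.7%). In male IS21SE pools 4 of 29 were negative (17.6%) and 4 positive (17.5%), and in female IS21SE pools 3 of 30 were negative (11.3%) and 1 positive (13.8%). The IS21SE counts, of 1 to 4 genes, thus lay near or below the shares of all genes, and the negative IS21FE counts above them. These counts were not tested. Over both schemes, male pools had 0 of 29 positive throughout (1.94%), and female pools had 2 of 28 negative, ACTA1 and CASQ1 (3.74%), and 0 positive (5.39%).

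Taking the 6 replicates of a scheme together, 5 of 28 muscle genes measured in all of them were negative throughout under IS21FE: ACTN2, MYBPC1, MYLPF, RYR1 and TNNC1. Over all genes that share was 2.48%. These signs are those of averages over both dye orientations. The orientation means differed in sign for MYLPF in male and for ACTN2 and TNNC1 in female IS21FE pools. ATP2A2 alone was positive throughout (2.24% of all genes). Under IS21SE 0 of 28 were negative throughout (1.67%) and 0 positive (2.47%). The mean of both sexes was negative in 26 of 31 muscle genes for IS21FE (50.5% of all genes) and in 16 of 30 for IS21SE (48.4%), with medians of -0.16 and -0.011. The count for IS21FE was 24 of 30 from arrays of treated RNA in Cy5 and 19 of 28 from arrays of control RNA in Cy5 (55.3% and 45.1% of all genes). It was 22 of 31 with only male arrays turned, 13 of 18 for probes with a value on all 24 arrays and 23 of 29 without the 3 female arrays that were most alike. Male and female pools came from the same sows, so the 6 replicates of a scheme are not 6 independent litters.

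Directly compared, the schemes differed at an adjusted p of 0.05 in 0 of 30 muscle genes (0% of all genes), and at an unadjusted p under 0.05 in 3 of 30 (5.35% of all genes), 2 of them negative (2.9%) and 1 positive (2.45%). These were ASB15 (IS21FE minus IS21SE 1.37 ± 0.30, limma SE; limma adjusted p = 0.787), ACTN2 (-0.35 ± 0.13) and ACTC1 (-0.31 ± 0.13; limma adjusted p = 0.895 each). The difference was negative in 24 of 30 muscle genes with a median of -0.11, where 52.6% of all genes were negative.

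Between the sexes, 0 muscle genes passed the adjusted threshold for either scheme (0% of all genes). Under IS21FE 2 of 31 had an unadjusted p under 0.05 (6.21% of all genes), 0 negative (3.1%) and 2 positive (3.11%): CASQ1, with a male minus female difference of 2.39 ± 0.74, and ASB15, with 2.24 ± 0.43 (limma SE; limma adjusted p = 0.699 and 0.459). Under IS21SE there were also 2 (7.18%), both negative (3.72%; positive 3.46%): NEB, with -0.82 ± 0.28, and ASB15, with -1.73 ± 0.43 (limma SE; limma adjusted p = 0.638 and 0.575). Shared genes had the lower ratio in the male IS21FE group in 11 of 12 cases, with a median difference of -0.19, where 54.5% of all genes had a negative difference. Array SDs ran from 0.94 to 1.33 in male and from 0.62 to 0.89 in female pools, so contrasts between sexes set arrays of unlike scale side by side.

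How far both dye orientations gave the same sign was counted for every gene and group. They did in 57 of 123 cases for muscle genes (46.3%), which is the share over all genes (46.3%). By group the shares were 60% in male IS21FE pools (45% of all genes), 45.2% in female IS21FE pools (47%), 45.2% in male IS21SE pools (53.4%) and 35.5% in female IS21SE pools (39.9%). In these genes the 2 orientations thus gave opposite signs more often than the same sign.

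Related genes were counted for context. Of 41 further genes of the sarcomere, triad and end plate, 28 were negative in the IS21FE mean (median -0.043) and 13 of 39 in the IS21SE mean (median 0.059). MYOT, a Z-disc protein, had the smallest p of them for IS21FE, with -0.33 ± 0.077, and ANKRD23, an ankyrin repeat protein of muscle, the next, with 1.89 ± 0.57 (limma SE, n = 6 each; limma adjusted p = 0.352 and 0.519). Of 18 muscle metabolism and sarcolemma genes, 12 were negative for IS21FE (median -0.055) and 9 for IS21SE. The glycogen phosphorylase PYGM had -0.63 ± 0.17 and the muscle enolase ENO3 -0.50 ± 0.14 for IS21FE (limma SE, n = 6 each; limma adjusted p = 0.439 and 0.442). Of 14 myogenic regulators, which are transcription factors and other genes of muscle formation, 7 were negative for IS21FE and 6 for IS21SE. In these 3 lists 0 genes passed the adjusted threshold in any group or scheme mean, and at an unadjusted p under 0.05 there were 5 of 41, 2 of 18 and 3 of 14 for IS21FE, where all genes had 8.08%. By direction these were 3 positive and 2 negative in the first list, 2 negative in the second, and 1 positive and 2 negative in the third. In male IS21SE pools the first list had 5 positive and 5 negative of 40 genes (5.74% and 5.39% of all genes). The second list had 1 positive and 0 negative of 18 there, and the third 0 of 14. The IS21SE mean had 1 positive of 39, 1 positive of 18 and 0 of 14 (4.25% of all genes were positive), with 0 negative in each (3.44%).

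Markers of heart and smooth muscle, which the pools could also hold, were read beside the sarcomere genes. The lists were not separate: MYH7, MYL3 and TNNT2 were listed both as heart genes and among the further sarcomere genes. Of 14 heart genes, 11 were negative in male IS21FE pools with a median of -0.11, and their replicate medians ran from -0.41 to 0.27. In male IS21SE pools 10 of 13 heart genes were positive with a median of 0.29 and replicate medians from 0.22 to 0.74, and 6 of them had an unadjusted p under 0.05 (positive, 5.74% of all genes), among them the natriuretic peptides NPPA at 0.83 ± 0.19 and NPPB at 0.98 ± 0.20 (SD, n = 3 each; limma adjusted p = 0.219 and 0.245). The heart calcium channel RYR2 was the 1 negative heart gene under that p, at -1.14 (5.39% of all genes). Female IS21FE pools had 7 of 14 heart genes negative, with a median of -0.015 and replicate medians from -0.072 to 0.11. In female IS21SE pools 10 of 14 were negative, with a median of -0.12 and replicate medians from -0.26 to 0.21, where the sarcomere genes had a median of -0.012. ACTN2 and ACTC1, which heart muscle also uses, had means of 0.29 and 0.18 in male IS21SE pools. In female IS21SE pools their means were -0.062 and 0.062. Smooth muscle genes had replicate medians from -0.36 to 0.013 in male IS21FE pools, from -0.14 to 0.037 in female IS21FE pools, from -0.038 to 0.25 in male IS21SE pools and from -0.0081 to 0.077 in female IS21SE pools. The part of heart and smooth muscle in the ratios of the sarcomere genes was not tested.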

How the data were processed

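RNA of embryo pools was extracted with a column kit with DNase treatment, and 200 ng was labelled with a low input 2-colour kit with spike-ins, per the labels' protocols. The deposited values are log2 ratios of the 2 channels for 43749 probes. The base was taken as 2 from their range (-9.342 to 9.852). The authors' normalization, background correction and filter, and the ratio's direction, stand in none of the sources used here, and 16.6% of values were blank. Where control RNA carried Cy5, the array was turned by -1. The 2 arrays of a replicate were averaged, or 1 was used where its partner was blank, and then the probes of a gene. Members were matched by platform symbol. Of 43749 probes, 18109 had 1 symbol, 25640 none. The Sscrofa11.1 RefSeq table held 2657 of 4738 probe accessions, and other genes' symbols were updated.

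limma 3.58.1 in R 4.3.3 fitted 4 group means to 12 replicates for all genes with at least 2 measured replicates per group, with eBayes and Benjamini-Hochberg adjustment over all genes. A threshold of 0.05 was used. Replicates are separate pools by the labels. Named genes had an unadjusted p under 0.05 in a group or scheme mean or were among the 2 smallest p of their role in a scheme mean; other members are given by range and counts, and those shown with replicate values were chosen after these were seen. The members, lists and tests were chosen with earlier results of these data known. Scripts were tested on simulated data. Same-numbered male and female pools were compared by the correlation of their deviations from group means across 9496 genes (r from 0.0075 to 0.083), and since these were not all over 0.1 the numbers were not taken as pairs. The 29 alternatives covered the turn, dye orientation, blanks, probes, weights, scaling, fitted groups, replicates left out and a replicate block. No sequence was used, and coordinates of the RefSeq table only for the order of the myosin genes.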

Additional observations from a re-analysis of the deposited data

Results flagged for a closer look

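Among the sarcomere genes 3 results stood out because every replicate of one group lay on one side of 0 and every replicate of another group on the opposite side. CASQ1 had 0.51 in male IS21SE pools and -0.28 in female IS21SE pools, a male minus female difference of 0.79 on the log2 scale (limma adjusted p = 0.857). Of 27 muscle genes measured in all replicates this was 1, where 4.61% of all genes had such opposite signs. In female IS21SE replicates 1 and 3 the 2 arrays of CASQ1 had opposite signs (0.45 and -0.64, 0.048 and -0.30). Its female mean was -0.026 with treated RNA in Cy5 and -0.53 with control RNA in Cy5, and the male means were 0.074 (1 array) and 0.70. The female sign thus rests mostly on arrays of control RNA in Cy5, and so on the dye order of female columns. ACTN2 had -0.29 in male IS21FE pools and 0.29 in male IS21SE pools, a difference of -0.59, and MYOM1 had -0.12 and 0.093 in the same groups, a difference of -0.21. With treated RNA in Cy5 alone MYOM1 was positive in both groups (0.10 and 0.19), so its opposite signs rest on averaging the orientations, while ACTN2 had them in each orientation (-0.37 and 0.22, and -0.21 and 0.37). These were 2 of 27 muscle genes, against 3.21% of all genes, and the difference between schemes within males was not tested. In the other 2 pairs of groups 0 of 27 muscle genes had opposite signs (3.29% of all genes for male against female IS21FE, 1.59% for female IS21FE against female IS21SE).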

How the results depend on the processing

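Of 29 alternatives, 28 left 0 muscle genes past the adjusted threshold in each contrast they could give, and muscle genes at an unadjusted p under 0.05 in male IS21FE numbered 1 to 5 over those that could be run for it. With no array turned, 1 passed in female IS21FE (NEB), the median of all muscle genes in male IS21FE was -0.033, and signs changed for CASQ1 (0.60 in female IS21FE, 0.64 in the IS21FE mean), ACTC1 (0.21) and MYOM2 (0.051) in male IS21FE, ACTN2 (-0.071) and NEB (0.38) in male IS21SE and ASB15 in the IS21SE mean (0.038). With only male arrays turned, CASQ1 was 0.60 in female IS21FE and 0.44 in the IS21FE mean. With arrays of treated RNA in Cy5 alone, the medians were -0.21 in female IS21FE and -0.16 in male IS21SE. Which dye order holds was not tested. Genes past the threshold over all genes were 308 in female IS21FE, 119 in female IS21SE and 323 in the IS21FE mean with no array turned, and in male IS21FE they were 25 without replicate 1, 7 without replicate 3 and 0 with probes measured on both arrays, against 3 as reported. With 1 replicate left out, the medians of all muscle genes ran from -0.20 to -0.075 in male IS21FE, from -0.12 to -0.049 in female IS21FE, from -0.092 to 0.069 in male IS21SE, from -0.033 to -0.00085 in female IS21SE, from -0.17 to -0.11 in the IS21FE mean and from -0.076 to 0.040 in the IS21SE mean.

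A replicate block pairing same-numbered male and female pools gave 0 muscle genes past the threshold, a median of -0.15 for IS21FE and -0.011 for IS21SE, and changed no call. Female IS21FE replicate 3 correlated better with male replicate 2 (0.046) than with male replicate 3 (0.013). In the fit to single arrays with a dye term, the estimated correlation within a replicate was 0.074. Signal over background was not used here, so dim probes could not be left out.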
